A study of Homo sapiens with 6 samples.

Results

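The immune checkpoint ligands described here are 9 genes whose products, made by a tumour cell, restrain T cells, natural killer (NK) cells or macrophages: *CD274*, *PDCD1LG2*, *CD276*, *VTCN1*, *LGALS9*, *CD47*, *IDO1*, *NT5E* and *CEACAM1*. They were taken by gene symbol from the 57905 genes of the table, and all 9 were found in it. RT4, an established line of non-muscle invasive bladder cancer cells with the genotype given as WT, received 100 pmol of siRNA for 48 h. The Scramble group received a commercial universal negative control and the LEADR-KD group the *LEADR*-specific siRNA, with 3 poly(A) RNA libraries in each group. *LEADR* is a spliced long non-coding RNA of the gene *MIR205HG*. The comparison thus rests on 1 cell line and 1 siRNA against *LEADR*, and neither an interferon treatment nor immune cells are named in the labels.

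Checkpoint ligands act by contact or by chemistry. PD-L1 (*CD274*) and PD-L2 (*PDCD1LG2*) bind PD-1 on T cells, and B7-H3 (*CD276*) and B7-H4 (*VTCN1*) belong to the same B7 family. Galectin-9 (*LGALS9*) binds sugars on receptors such as TIM-3, CEACAM1 binds itself and TIM-3, and CD47 signals to macrophages through SIRPα not to engulf the cell. IDO1 and CD73 (*NT5E*) are enzymes: the first turns tryptophan into kynurenine, the second makes adenosine from AMP, and both products dampen T cells. Interferon-γ raises several of them, PD-L1 and IDO1 above all, while BCG given into the bladder and antibodies to PD-1 and PD-L1 are used against bladder cancer.

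The siRNA is shown first because bases 2 to 8 of an active strand can pair with other transcripts in the manner of a microRNA seed. Those of the strand given in the labels are in capitals. Whether this strand or its complement pairs with *LEADR* was not examined here. The capitals in the other sequences mark the matching 7 bases, followed in *NECTIN1* by an A. They lie in the 3′ UTR of the 2 ligands that fell and of *NECTIN1*, a further inhibitory ligand described below that also fell. *SIGLEC15*, another inhibitory ligand described below that fell, did not hold these 7 bases in a 3′ UTR. Of the 12111 tested genes with an annotated 3′ UTR, 17.6% held these 7 bases there.
siRNA, strand given in the labels: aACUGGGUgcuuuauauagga
*CEACAM1*: tacttctcACCCAGTcttctaca
*NT5E*: tactacacACCCAGTtatggaat
*NECTIN1*: cacctcagACCCAGTAcgtgtgc
On GRCh37 (hg19, GENCODE v44lift37) the matches lie at chr19:43011744-43011750 on the minus strand, in 3 of the 15 annotated transcripts of *CEACAM1*, and at chr6:86204816-86204822 on the plus strand, in 2 of the 5 transcripts of *NT5E*. That of *NECTIN1* lies at chr11:119532619-119532626 on the minus strand, in 1 annotated transcript.

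*MIR205HG* gave 511, 337 and 346 counts in Scramble 1, 2 and 3 against 113, 211 and 101 after LEADR-KD (log2 fold change -1.47, SE 0.26, adjusted p = 0.00180 from edgeR). Every test below is the quasi-likelihood test of edgeR, with p values adjusted over all tested genes. Library totals ran from 15706033 to 18960822 counts, and mitochondrial genes took the largest shares in both libraries numbered 1, 11.9% in Scramble and 10.8% in LEADR-KD, against 3.06% to 5.73% in the others. Of 13 urothelial and epithelial markers 11 had enough counts to be tested, with *EPCAM* at 264 ± 6.49 CPM (counts scaled by library size, SD, n = 3) in Scramble, whereas *KRT5* and *KRT20* did not pass the minimum. *CDH1* and *KRT18* rose, and the other 9 did not pass the test. Leukocyte markers summed to 5.13 to 9.79 CPM in Scramble and 5.20 to 8.72 CPM in LEADR-KD, mostly *ITGAM*, and 6 of 12 were at 0 in every library (*CD3D*, *CD3E*, *CD4*, *CD68* and *LYZ* among them). Fewer cells of a kind and less RNA per cell cannot be told apart in such bulk samples.

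In *LEADR*-depleted cells *CEACAM1* and *NT5E* fell to about 35% and 31% of their Scramble levels, while *IDO1*, *CD47* and *CD276* rose. *CD274*, *VTCN1* and *LGALS9* did not pass the test, and *PDCD1LG2* had too few counts to be tested. Thus 3 of the 8 tested ligands were called higher, beside 12.2% of all 14178 genes tested, and 2 were called lower, beside 12.1%. Of those called higher, *IDO1* had enough counts to be tested only through the LEADR-KD libraries. Their median log2 fold change was 0.32, and that of all tested genes -0.01. In CPM on TMM-scaled libraries the groups did not overlap for 3 of the 8 tested ligands on the higher side and for 2 on the lower side. The untested *PDCD1LG2* also did not overlap, on the higher side. Among all tested genes the share was 19.9% in each direction.

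The ligands fell into an abundant and a scarce class. Levels are compared between genes in FPKM, a count per length of gene and depth of library. In Scramble the order was *CD276* (22.0 ± 0.498, SD, n = 3), *CEACAM1* (17.0 ± 0.570), *CD47* (11.3 ± 0.789) and *NT5E* (6.22 ± 1.37), and no neighbours in it overlapped. *CD276* stood above 84.7% of the tested genes and *NT5E* above 55.0%. The scarce class followed with *CD274* (0.362 ± 0.225), *LGALS9* (0.210 ± 0.142), *VTCN1* (0.184 ± 0.0756), *IDO1* (0.0591 ± 0.0386) and *PDCD1LG2* (0.0233 ± 0.0245). Here *CD274* overlapped *LGALS9*, *LGALS9* overlapped *VTCN1*, and *IDO1* overlapped *PDCD1LG2*. In LEADR-KD *CEACAM1* was in place 3, below *CD47*, and *IDO1* reached the range of *VTCN1* and *LGALS9*.

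**Figure D1:**
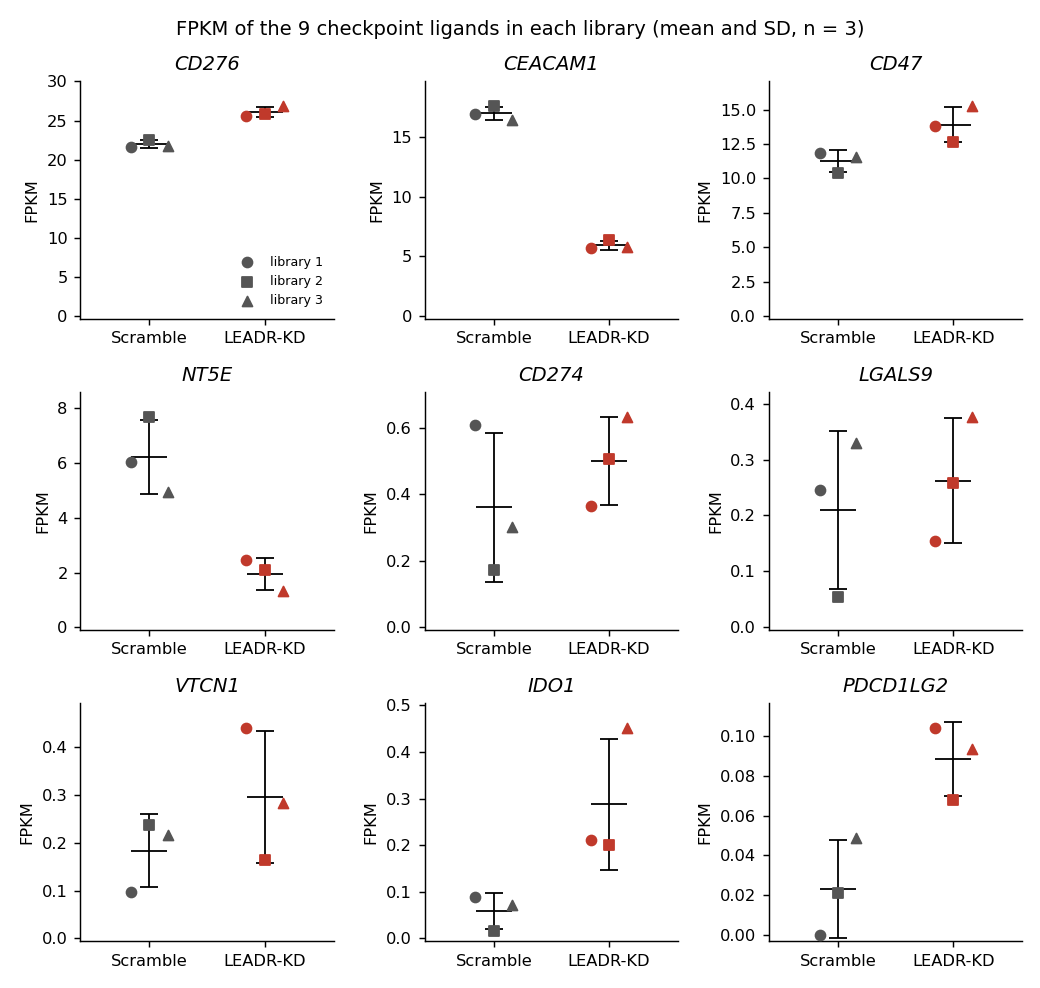
FPKM of each ligand (vertical axis, its own scale in each panel) in the 3 Scramble (grey) and 3 LEADR-KD (red) libraries, with the mean and SD as bars and the library number as the symbol. *CEACAM1* lay between 16.4 and 17.6 in Scramble and between 5.67 and 6.36 in LEADR-KD, whereas the groups overlapped for *CD274*, *LGALS9* and *VTCN1*.

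*CEACAM1* encodes an adhesion molecule of epithelial and immune cells, and was the ligand with the smallest p value. Libraries 1, 2 and 3 of Scramble had 16.9, 17.6 and 16.4 FPKM against 5.67, 6.36 and 5.80 FPKM in those of LEADR-KD. The groups were far apart, with little spread inside either. The log2 fold change was -1.52 (SE 0.09, 95% interval -1.72 to -1.33, adjusted p = 1.19e-06 from edgeR), number 14 by p among the genes with a lower value in LEADR-KD. The gene (ENSG00000079385) lies at chr19:43011456-43065386 on the minus strand, where *LIPE-AS1* on the opposite strand had at most 10 counts in a library. All 15 alternative fits kept the call, with log2 fold changes from -1.58 to -1.37.

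*NT5E*, the gene of the adenosine-making ectoenzyme CD73, fell by a similar amount. FPKM values of 6.04, 7.67 and 4.95 in Scramble stood against 2.47, 2.08 and 1.31 in LEADR-KD. The highest LEADR-KD library was below the lowest Scramble library. The log2 fold change was -1.69 (SE 0.22, 95% interval -2.17 to -1.20, adjusted p = 0.000279 from edgeR), and it stayed between -1.91 and -1.29, past the test, in all 15 alternative fits. The gene (ENSG00000135318) lies at chr6:86159809-86205500 on the plus strand.

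*IDO1* rose from a very low level. The Scramble libraries held 5, 1 and 4 counts against 11, 12 and 26 after LEADR-KD, so every LEADR-KD library was above every Scramble library. The log2 fold change was 2.27 (SE 0.64, 95% interval 0.87 to 3.67, adjusted p = 0.0237 from edgeR). *IDO1* passed the minimum count for testing only through the LEADR-KD libraries, so its being tested depended on the rise itself. With a mean of 10 counts required in each group it was not tested. Summed over libraries, 10 against 49 counts gave a scaled ratio of 5.03, with an exact 95% interval of 2.52 to 11.1 that covers counting error only. The call was lost without Scramble 2 (adjusted p = 0.0910 from edgeR), without Scramble 3 (0.0536) and without LEADR-KD 3 (0.120), by limma on log2(FPKM + 1) the adjusted p was 0.0532, and DESeq2 gave none. The gene (ENSG00000131203) lies at chr8:39759794-39785963 on the plus strand.

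*CD47* and *CD276* rose by small amounts. *CD47*, the macrophage ligand, had 11.9, 10.4 and 11.5 FPKM in Scramble against 13.8, 12.7 and 15.3 FPKM after LEADR-KD. *CD276*, a B7 protein found on many carcinomas, had 21.6, 22.6 and 21.8 FPKM in Scramble against 25.6, 25.9 and 26.8 FPKM after LEADR-KD. Neither gene's groups overlapped, though for *CD47* the gap was narrow. The log2 fold change of *CD47* was 0.29 (SE 0.09, 95% interval 0.09 to 0.50, adjusted p = 0.0401 from edgeR). That of *CD276* was 0.24 (SE 0.07, 95% interval 0.08 to 0.40, adjusted p = 0.0359 from edgeR). Both lay close to the threshold. *CD47* lost the call when Scramble 2 or 3 was left out (adjusted p = 0.151 and 0.0709 from edgeR) and likewise for LEADR-KD 1 or 3 (0.0614 and 0.147), and *CD276* without any library but LEADR-KD 1 (0.0765 to 0.107). With libraries scaled by their totals both calls were lost as well (adjusted p = 0.135 for *CD47* and 0.203 for *CD276* from edgeR), as was that of *CD276* with no filter on low counts (0.0750) or without both libraries numbered 1 (0.0671). By limma on log2(FPKM + 1) and log2(FPKM + 0.1) the adjusted p of *CD47* was 0.0574 and 0.0564. The genes lie at chr3:107762145-107809872 on the minus strand (ENSG00000196776) and chr15:73976307-74006859 on the plus strand (ENSG00000103855).

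*CD274*, the gene of PD-L1, did not pass the test. It had 43, 14 and 21 counts in Scramble against 24, 38 and 46 after LEADR-KD. Scramble 1 was above LEADR-KD 1 and 2, so the groups overlapped, although the other Scramble libraries were below every LEADR-KD library. The log2 fold change was 0.47 (SE 0.44, adjusted p = 0.486 from edgeR), and its 95% interval ran from -0.49 to 1.44, which holds no change as well as a doubling. Without both libraries numbered 1 it was 1.26 (adjusted p = 0.0567 from edgeR), a choice made after the data were seen, and without Scramble 2 it was 0.13. The part of the mitochondrial share in this was not tested. The sums of 78 and 108 counts gave a scaled ratio of 1.42 with an exact 95% interval of 1.05 to 1.93, which covers counting error and not the spread between libraries. The gene (ENSG00000120217) lies at chr9:5450503-5470566 on the plus strand.

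Its neighbour *PDCD1LG2* (ENSG00000197646, chr9:5510545-5571282 on the plus strand), the gene of PD-L2, was at the limit of detection. It had 0, 1 and 2 counts in Scramble against 4, 3 and 4 after LEADR-KD. The groups did not overlap, but the sums of 3 and 11 counts gave a scaled ratio of 3.77 with an exact 95% interval from 0.995 to 21.0 for counting error alone. Fitted with no filter on low counts, its log2 fold change was 1.80 (SE 1.48, adjusted p = 0.544 from edgeR).

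*VTCN1* and *LGALS9* were also scarce. *VTCN1*, the gene of B7-H4, had 5, 14 and 11 counts in Scramble against 21, 9 and 15 after LEADR-KD. *LGALS9*, the gene of galectin-9, had 24, 6 and 32 counts in Scramble against 14, 27 and 38 after LEADR-KD. Both pairs of groups overlapped. The log2 fold changes were 0.64 (95% interval -0.50 to 1.78, adjusted p = 0.415 from edgeR) and 0.34 (95% interval -0.88 to 1.55, adjusted p = 0.706 from edgeR), and each changed sign when libraries were left out. The summed counts gave scaled ratios of 1.54 (exact 95% interval 0.95 to 2.53) and 1.31 (0.927 to 1.86), for counting error alone. *VTCN1* (ENSG00000134258) lies at chr1:117686209-117753556 on the minus strand and *LGALS9* (ENSG00000168961) at chr17:25956824-25976586 on the plus strand. The close copies *LGALS9B* and *LGALS9C* were at 0 in every library.

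**Figure D2:**
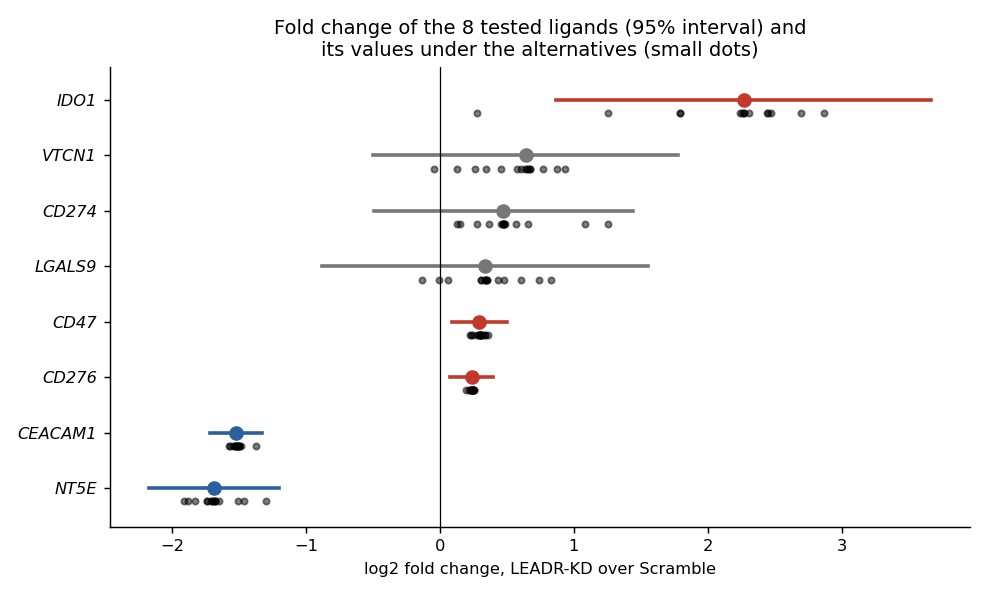
Log2 fold change of the 8 tested ligands in LEADR-KD over Scramble (horizontal axis), as a large dot with its 95% interval, in red where the gene rose, blue where it fell and grey where it did not pass the test. Small dots under each are the values from the alternative fits. *CEACAM1* and *NT5E* lie below -1 in every fit, and *LGALS9* and *VTCN1* have values on both sides of 0.

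The 3′ UTR match to bases 2 to 8 of the siRNA strand given in the labels was found in *CEACAM1* and *NT5E* and in none of the other 7 ligands. The match to the complementary strand, whose letters are ATATAGG, was in no 3′ UTR of the 9. Both were sought on the transcript strand only. Of the 12111 tested genes with an annotated 3′ UTR, 17.6% held the letters ACCCAGT and 10.3% held ATATAGG. By call, ACCCAGT was present in 30.6% of 1567 genes called lower, in 13.9% of 1696 called higher and in 16.1% of 8848 not called. ATATAGG was present in 11.9%, 11.3% and 9.86% of the same classes. The median length of the longest 3′ UTR was 2222 bases in the genes called lower, 2294 in those called higher and 1746 in the rest. Outside 3′ UTRs, *CEACAM1* held 2 further matches and *CD276*, which rose, 1 in coding sequence, and *NT5E* 1 in a 5′ UTR. Matches of *IDO1* outside its 3′ UTR are not reported here. *LGALS9*, which did not pass the test, held 1 in a 5′ UTR that was followed by an A, as in *NECTIN1*, and 1 in transcripts with no coding region. A match is a string of letters and not a binding site. Which strand of the duplex was active and the sequence of the control siRNA are not given in the sources used here. Neither strand was compared with the transcripts of *MIR205HG*. The part of these matches in the fall of *CEACAM1* and *NT5E* was not tested.

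**Figure D3:**
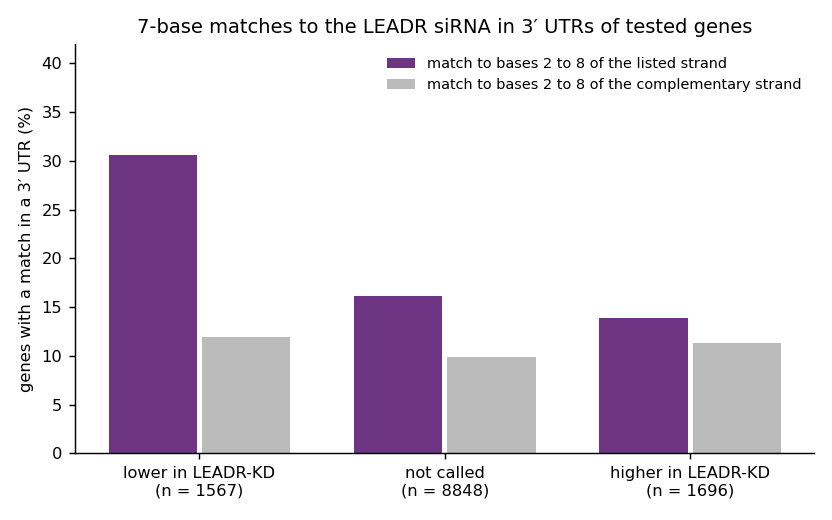
Share of tested genes (%, vertical axis) with a 7-base match in a 3′ UTR to the strand of the siRNA given in the labels (purple) and to its complementary strand (grey), for genes called lower, not called and called higher in LEADR-KD. The purple bar is 30.6% in the genes called lower and 16.1% and 13.9% in the others, whereas the grey bars run from 9.86% to 11.9%.

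Promoter sequences were read for interferon motifs, since several ligands are known interferon targets. RefSeq promoters on GRCh38.p14, running from 250 bases before to 50 after the start, were given for 7 of the 9 ligands. *IDO1*, which rose, and *PDCD1LG2* had none and were not searched. The stretches below are those before the start that hold a motif, in capitals: the core of the interferon-stimulated response element (GAAA, any 2 bases, GAAA) or the gamma-activated site (TTCNNNGAA), on either strand.
*CD274*, chr9:5450314-5450445, plus strand: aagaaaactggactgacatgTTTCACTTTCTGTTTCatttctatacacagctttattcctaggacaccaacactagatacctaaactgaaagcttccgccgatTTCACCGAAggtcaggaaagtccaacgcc
*CEACAM1*, chr19:42528568-42528617, minus strand: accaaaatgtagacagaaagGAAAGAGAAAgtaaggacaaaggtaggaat
*LGALS9*, chr17:27631159-27631188, plus strand: taacagccaagttgctttggTTTCTATTTC
In *CD274* a pair of overlapping response element cores lies on the reverse strand. The gamma-activated site reads on both strands. *CD274* was the only one of the 7 searched ligands with both motifs, which 3.57% and 7.66% of all 35116 promoters held. Of the 3 searched ligands with a motif, *CEACAM1* fell and *CD274* and *LGALS9* did not pass the test. *CD47*, *CD276*, *NT5E* and *VTCN1* held neither string in this window.

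The genes whose pattern was most like that of each called ligand were found from log2 CPM, centred on each gene's own mean, by the root mean square difference over the 6 libraries. For *IDO1* they were *MX2* (0.48), *SAMD9L* (0.49) and *IFIT1* (0.51), all interferon-stimulated genes. Like *IDO1* they were lowest in Scramble 2 and highest in LEADR-KD 3, which can follow from their being picked on these same values. Within Scramble, however, *IDO1* was highest in library 1 and these genes in library 3. *IFIT1* had 9.48, 3.54 and 23.6 CPM in Scramble against 42.3, 54.6 and 81.0 CPM after LEADR-KD. The differences from *IDO1* were larger than those found for the other called ligands. For *CEACAM1* they included *HDHD1* (0.077) and *MST4* (0.077), and for *NT5E* they were *SHROOM4* (0.15), *HSD17B14* (0.17) and *CCNG2* (0.19). For *CD47* they were *NAA10* (0.014), *ERAP2* (0.027) and *PFKP* (0.031), and for *CD276* *CDC27* (0.017), *RPL22L1* (0.018) and *RFC5* (0.021). Of the genes most like the 5 ligands, *SHROOM4*, which fell, and *PFKP*, which rose, held ACCCAGT in a 3′ UTR, and none of those most like *CEACAM1* did. Likeness over 6 libraries of 2 groups is a description, chosen among the 10603 tested genes that averaged 5 CPM or more.

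**Figure D4:**
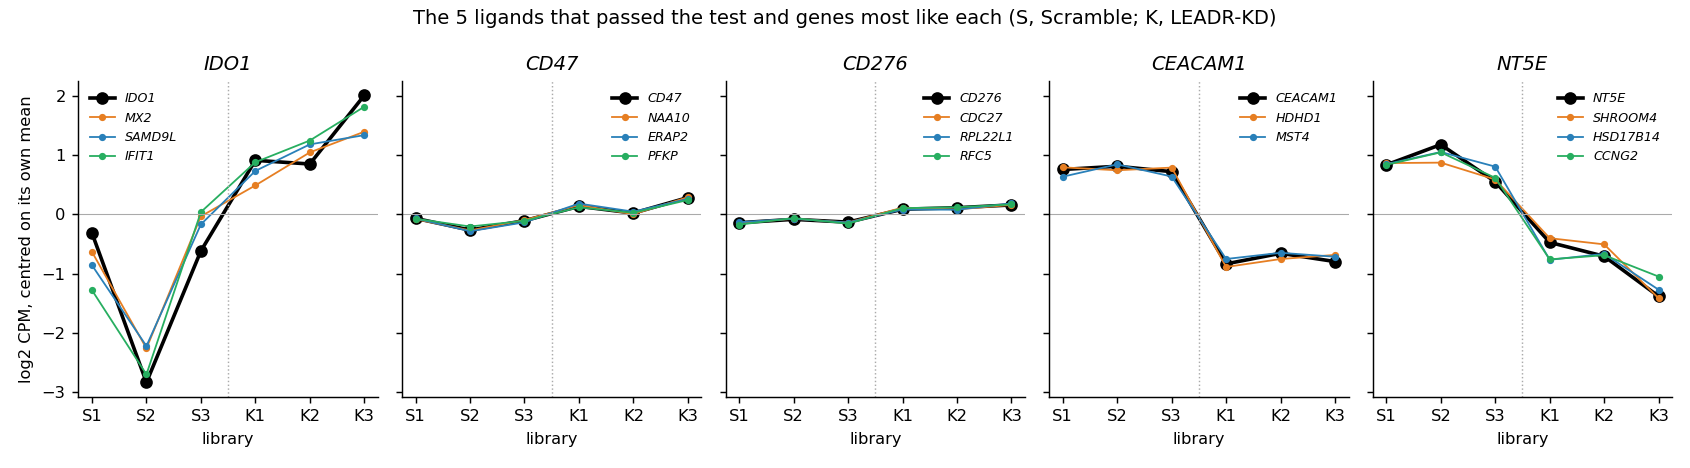
Log2 CPM centred on each gene's own mean (vertical axis) in Scramble 1 to 3 (S1 to S3) and LEADR-KD 1 to 3 (K1 to K3) for the 5 ligands that passed the test (black) and the genes most like each (colours; 3 genes a panel, of which 2 are drawn for *CEACAM1*); lines only join the values of a gene. *IDO1* and its like genes have their lowest value in Scramble 2, where *IDO1* had 1 count, while *CEACAM1* and its like genes are flat within each group.

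Around the ligands, 11 lists held 153 other genes, of which 102 could be tested: 19 rose and 8 fell, with a median log2 fold change of 0.11. Of all 14178 genes tested, 12.2% rose and 12.1% fell, and the counts of each list are to be read beside these shares. Among the other inhibitory ligands of T and NK cells, 2 of 11 tested genes rose and 2 fell. *NECTIN1* (named *PVRL1* in the table), a nectin that binds the receptor CD96, fell from 89.7 ± 3.91 to 28.0 ± 2.28 FPKM (log2 fold change -1.69, SE 0.09, adjusted p = 8.00e-07 from edgeR). *SIGLEC15*, whose product inhibits T cells, also fell (log2 fold change -0.73). *CD55*, a complement inhibitor, rose by 0.76 and *HLA-E*, the ligand of the NK receptor NKG2A, by 0.30 on the log2 scale. Of 8 other B7 and butyrophilin genes only *BTN3A1* passed the test, and it was lower (log2 fold change -0.78, SE 0.19, adjusted p = 0.0114 from edgeR). None of 8 activating ligands did; *MICA*, a stress ligand of NKG2D, was at 42.6 ± 2.49 and 39.9 ± 8.49 CPM and *CD58*, the ligand of CD2, at 8.73 ± 0.446 and 10.3 ± 0.913 CPM.

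In the list on PD-L1 induction and turnover 5 of 24 genes rose and 2 fell. *JAK2*, a kinase that carries the interferon-γ signal, rose by 0.90 on the log2 scale (adjusted p = 0.00740 from edgeR). *STT3B*, a glycosyltransferase subunit, and *DNMT1*, a DNA methyltransferase, rose by 0.42 and 0.40. *HIP1R*, which sends PD-L1 to lysosomes, and *COPS5*, which deubiquitinates it, had log2 fold changes of -0.33 and -0.26. *CD274* itself did not pass the test beside them. In the interferon-γ list 6 of 13 tested genes rose and none fell, with a median log2 fold change of 0.49, and the rise was largest in *CXCL10* (2.48, adjusted p = 0.000522 from edgeR), *GBP1* (1.17), *HLA-B* (1.14) and *HLA-C* (0.75). *HLA-B*, *HLA-C* and *HLA-E* share sequence, so their reads may be split uncertainly between them.

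Near the enzymes, *KMO*, the step after kynurenine, rose by 0.85, the amino acid transporters *SLC7A5* and *SLC1A5* by 0.87 and 0.27, and *WARS*, the tryptophanyl-tRNA synthetase, fell (log2 fold change -0.96, SE 0.11, adjusted p = 0.000119 from edgeR). These were 3 genes up and 1 down of 12 tested, and *IDO2* was at 0 in every library. Around *NT5E*, in the list on extracellular ATP and adenosine, 2 of 10 tested genes rose and 1 fell. *ENTPD3*, an ectoenzyme upstream of CD73 that splits ATP, rose by 0.66 and the ATP channel *PANX1* by 0.40, and the nucleoside transporter *SLC29A1* fell (log2 fold change -0.49). On the CD47 axis *QPCT*, of the glutaminyl cyclase family whose member QPCTL modifies CD47 for SIRPα binding, rose by 1.17 (adjusted p = 0.0118 from edgeR), alone of 6 tested genes.

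No tested gene of the galectin or *CEACAM* lists passed the test. Of 6 tested in the galectin list the most abundant were *LGALS3BP*, which encodes a binding protein of galectin-3 and not a galectin, at 651 ± 92.4 CPM in Scramble and 736 ± 81.8 CPM in LEADR-KD, and *LGALS3*, at 175 ± 2.42 and 172 ± 9.77 CPM. Only 3 of 11 *CEACAM* genes had enough counts, and *CEACAM6* (1.08 and 0.626 CPM) and *CEACAM19* (1.41 and 0.933 CPM) were near the minimum. Of 13 receptors for the ligands, mostly genes of immune cells, 6 were at 0 in every library, *PDCD1*, *CTLA4*, *TIGIT* and *BTLA* among them. *CD96* was the only one tested and fell from 29.6 ± 4.05 to 19.1 ± 2.98 CPM (adjusted p = 0.00824 from edgeR). Among the pathway genes with an annotated 3′ UTR, the letters ACCCAGT were in 3 of the 8 that fell (*NECTIN1*, *CD96* and *WARS*) and in 2 of the 19 that rose, *SLC7A5* among them.

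**Figure D5:**
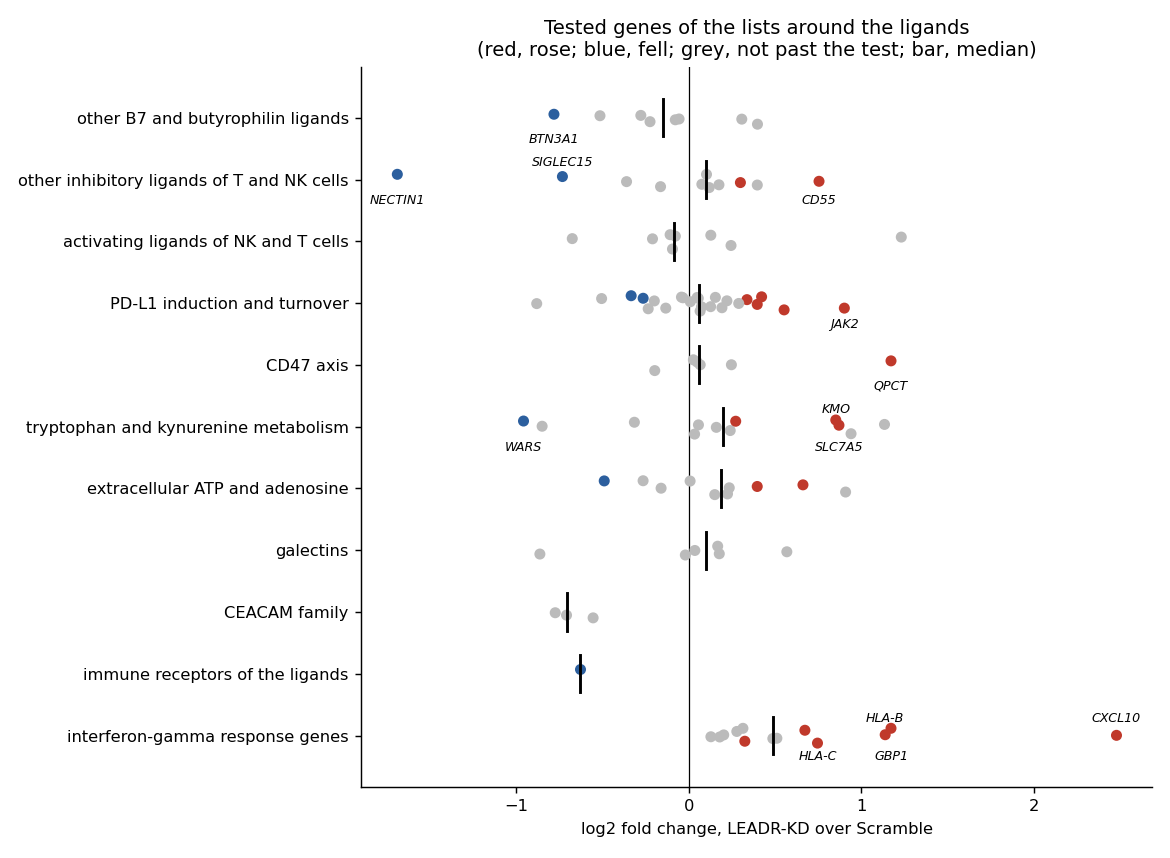
Log2 fold change in LEADR-KD over Scramble (horizontal axis) of the tested genes of the 11 lists, without the 9 ligands; red genes rose, blue genes fell, grey genes did not pass the test, and a bar marks each list's median. *NECTIN1* (-1.69) and *CXCL10* (2.48) lie at the ends, and the interferon-γ list has no gene below 0.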

How the data were processed

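Each of the 6 libraries was put in its group from the submitters' labels, and the ligands and lists were chosen with earlier results of these data known. The authors deposited raw counts per gene and FPKM values, equal to the deposited counts over gene length and 1 constant per library. The build was hg19. For alignment and counting the submitters' processing notes list HISAT2 2.0.5 with featureCounts 1.5.0-p3, and the paper's methods list Salmon. A table of the authors' own comparison (log2 fold changes and p-values from DESeq2 1.20.0) was not used. The sources used here do not state whether counting used strand, and a gene and an antisense gene over it may share reads.

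Counts were scaled by TMM, and filterByExpr (minimum count 10) left 14178 of 57905 genes. LEADR-KD was compared with Scramble by the two-sided quasi-likelihood test of edgeR 4.0.16 in R 4.3.3, without covariates. A gene rose or fell at a Benjamini-Hochberg adjusted p under 0.05 over all genes tested. Standard errors were the log2 fold change over the square root of F. The biological coefficient of variation was 12.6%, and the steps were tested on simulated data. The methods speak of biological replicates, without stating whether each library came from its own culture, and p values measure only the spread of these samples, part of which may be technical.

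Alternatives were DESeq2 1.42.0, scaling by DESeq2 size factors or by library totals, no filter or a mean of 10 counts, the replicate number as a block, limma 3.58.1 on log2(FPKM + 1) and log2(FPKM + 0.1), and leaving out each library. Leaving out both libraries numbered 1 was added after the data were seen. Genes are named by rule: all ligands and *MIR205HG*; per list and direction up to 4 called genes with the largest change, or the 2 tested genes with the highest CPM where none was called; the 3 genes most like each called ligand; and markers at 0. *CD24*, from the list of other inhibitory ligands, was not analysed here, and some genes named by this rule are not reported here. Sequences came from the siRNA in the labels, GENCODE v44lift37 transcripts on GRCh37 and RefSeq promoters on GRCh38.p14. Exact intervals came from scipy 1.17.1.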

Additional observations from a re-analysis of the deposited data

How the results depend on the processing

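*CEACAM1* and *NT5E* kept direction and call in every alternative, so that 2 ligands were always called lower, and the change of *MIR205HG* kept its call too (log2 fold change -1.22 to -1.82 with any library left out). The 3 ligands called higher became 1 with library totals and 1 with limma on log2(FPKM + 1), and 0 to 2 with any library left out; the cause was not tested. *LGALS9* ran from -0.14 (without Scramble 2) to 0.83 (without Scramble 3) and was at -0.0071 without LEADR-KD 3, and *VTCN1* was at -0.042 without both libraries numbered 1. With library totals 1085 genes and 11 pathway genes were called higher. With any library left out, so with fewer samples, 1188 to 1457 genes were called higher and 1142 to 1472 lower, and 11 to 18 pathway genes higher and 5 to 8 lower.

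The groups share replicate numbers, and their deviations from the group means correlated at 0.47, -0.005 and 0.56 for numbers 1, 2 and 3. Scramble 1 and 3 correlated best with the LEADR-KD library of their own number, but Scramble 2 with LEADR-KD 1 (0.10). Whether libraries of the same number belong together was not tested. With the replicate number as a block 2489 genes were called higher and 2365 lower, 31 and 12 of them pathway genes, and 3 ligands higher and 2 lower. Counts were low for *CD274*, *VTCN1*, *LGALS9*, *IDO1* and *PDCD1LG2*, at most 46 in a library.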

Other observations

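Genes within 500 kb of the ligands were also read, a choice made after the data were seen. Of all tested genes 12.2% rose and 12.1% fell. Beside *CD274* and *PDCD1LG2* on chromosome 9, *JAK2* rose (log2 fold change 0.90) and *KIAA1432* fell (-0.86, SE 0.15, adjusted p = 0.00146 from edgeR), out of 6 genes tested near *CD274*. The window of *PDCD1LG2*, with 8 tested genes, also held *RANBP6*, which rose (0.60, SE 0.10, adjusted p = 0.00128 from edgeR). None of the 4 genes tested near *NT5E* passed the test, among them *SYNCRIP* (0.16, SE 0.08, adjusted p = 0.182 from edgeR), an RNA-binding protein, and *SNX14* (0.06). Near *CEACAM1*, 2 of 12 rose, the acetylhydrolase subunit *PAFAH1B3* (0.41) and the ETS repressor *ERF* (0.47), and the repressor *CIC* fell (-0.47, SE 0.11, adjusted p = 0.00762 from edgeR).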
